A study of Mus musculus with 12 samples.

Results

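Livers of mice that ate a MASH-inducing diet and received cinnabarinic acid (MD+CA, 4 libraries) were compared with livers of mice that ate a control diet (CD, 4 libraries). These 8 of the 12 libraries in the study were chosen by their group labels alone, and the question was what stayed or became different from the control diet across all expressed genes. The study measured liver RNA by poly(A)-selected sequencing in 3 groups of 4. The remaining group ate the same MASH diet and received the vehicle (MD, 4 libraries), and its values are given beside many of the results. MASH, metabolic dysfunction-associated steatohepatitis, is fatty liver with inflammation and cell injury.

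All groups are labelled as AhR-floxed mice, in which the gene of the aryl hydrocarbon receptor carries loxP sites, and the labels name no Cre line. All mice are labelled male and began their diets at 8 weeks of age, for 20 weeks. The CD diet held 10 kcal% fat with sucrose matched to the other diet, and its treatment label is empty, so whether CD mice were injected is not given in the sources used here. In the MD and MD+CA diet fat made up 40 kcal%, fructose 20 kcal% and cholesterol 2%. MD+CA mice received 12 mg/kg cinnabarinic acid in 0.2% DMSO by intraperitoneal injection on Mondays, Wednesdays and Fridays, and MD mice received 0.2% DMSO in saline on the same days. CD and MD+CA therefore differed in the diet, in the compound and possibly in the injections, and the parts of these in any value below cannot be told apart. The labels do not say whether the 4 libraries of a group came from separate mice, so the p-values measure the spread between libraries. No label gives the time of day at which livers were taken.

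The liver turns dietary sugar into fat, stores glycogen, makes plasma proteins and oxidises drugs and steroids, and most of its RNA comes from hepatocytes. Its resident macrophages, the Kupffer cells, line the sinusoids. Many liver genes follow a daily rhythm set by the clock, in which BMAL1 with CLOCK or NPAS2 switches on the Per, Cry, Nr1d and Dbp genes, and REV-ERB proteins repress Bmal1 through ROR elements. Cinnabarinic acid is a tryptophan metabolite of the kynurenine pathway and is known as a ligand of the aryl hydrocarbon receptor.

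The 8 libraries held 9089586 to 13930275 reads assigned to transcripts. CD had 12.6 ± 1.50 megareads (SD, n = 4) and MD+CA 10.6 ± 1.21 (two-sided exact permutation test over libraries, p = 0.114, adjusted over 5 library measures 0.571; the smallest p that 4 against 4 allows is 0.0286). Mitochondrially encoded genes took 6.21% ± 0.395 of reads in CD and 6.29% ± 1.38 in MD+CA (exact p = 0.914, adjusted 0.943), against 10.9% ± 4.78 in MD. MD+CA replicate 3 had the fewest genes with a read, 17422. The liver label was met by abundant Alb, Ttr and Apoa1. Of 2 pancreatic genes, Prss1 had 0 reads in all 12 libraries and Cela1 had 67 to 148 in the 8. Adipoq, a fat cell gene, had 82 reads in MD+CA replicate 4 and 14 in CD replicate 4, against 0 to 2 in the other 6, and its part in the results was not tested. The male label was not met: Xist, the RNA of the inactive X chromosome, had 5122 to 11610 reads in the 8 libraries, and the Y-linked Ddx3y, Kdm5d, Uty and Eif2s3y had 0 reads in all 12. This held in both groups, so it does not separate them. MD+CA replicate 3 stood apart from the other MD+CA libraries for acute phase genes and replicate 2 for interferon-induced GTPases, and the list medians and the named genes in which they stood apart are given with and without them.

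Among the genes called different between MD+CA and CD were clock genes in both directions, with Bmal1 higher and Usp2, Per3 and Dbp lower in MD+CA. Called genes of fat synthesis and glycogen storage, such as Elovl6 and Gys2, were lower in MD+CA, and called macrophage genes, such as Mpeg1 and Cd68, were higher. Of 13631 genes tested with edgeR's quasi-likelihood test, 72 passed an adjusted p of 0.05 (0.528% of all tested). There were 30 higher in MD+CA (0.22%) and 42 lower (0.308%). Among them 67 differed by more than 2-fold, and 70 had no overlap between the 4 MD+CA and the 4 CD libraries. The exceptions were Gabbr2 and Fam25a. Over all genes tested, 6.4% had no overlap. Calls and overlap were drawn from the same values, so a lack of overlap is not separate support for a call. An unadjusted p under 0.05 was found for 1436 of the 13631, and DESeq2 called 334. The counts of list members below stand beside these. The median log2 fold change of all genes was 0.02, and 52.0% of them were above 0.

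**Figure D1:**
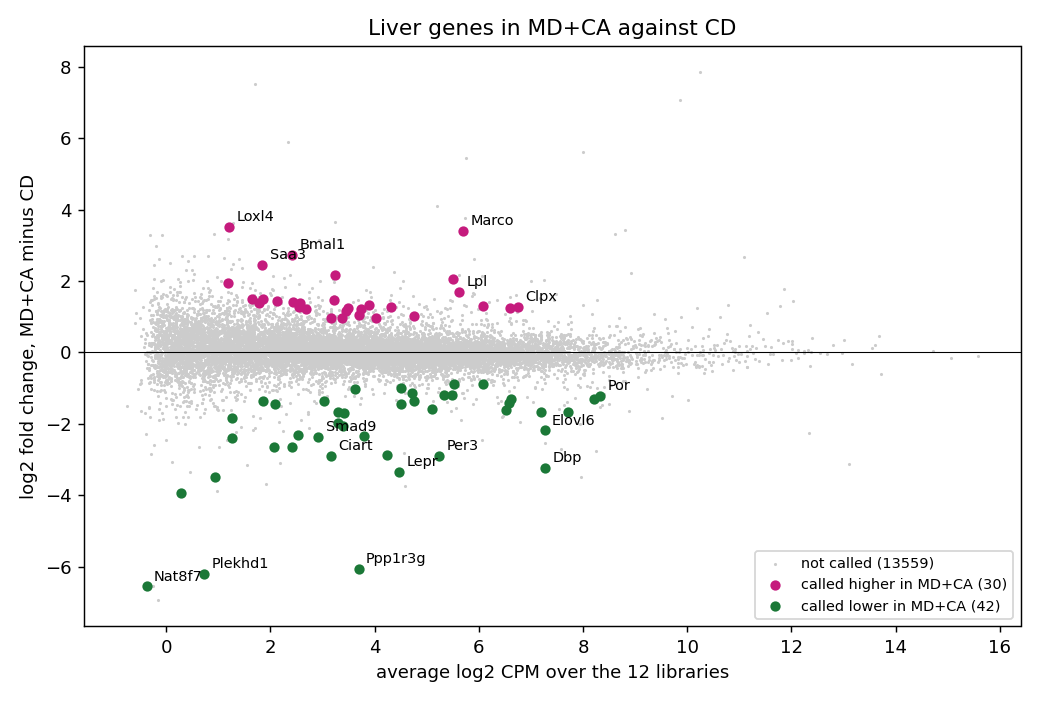
Log2 fold change of MD+CA over CD (vertical axis) against average log2 CPM over the 12 libraries (horizontal axis), 1 point for each of the 13631 genes tested; coloured points passed edgeR's adjusted p of 0.05. The 30 higher and 42 lower genes lie over a wide range of levels around a median of 0.02.

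The number of calls depended on single libraries. It was 20 without CD replicate 1, 23 without CD replicate 2, 61 without CD replicate 3 and 17 without CD replicate 4. It was 31, 28 and 37 without MD+CA replicates 1, 2 and 3, and 169 without MD+CA replicate 4. MD libraries entered the fit through the shared estimate of spread, and leaving out MD replicates 1 to 4 gave 45, 124, 49 and 50. In all 12 of these fits 13 genes stayed called, which were Usp2, Pdzk1ip1, Rdh9, Bmal1, Smad9, Saa3, Per3, Mpeg1, Ifi30, Nat8f7, Axl, Cnmd and Elovl6. A further 35 of the 72 were called in fewer than 6.

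Clock genes were among the differences with the smallest p. Usp2 (ENSMUSG00000032010.16), a ubiquitin protease whose RNA follows the clock, had the smallest p of all genes. Bmal1 (ENSMUSG00000055116.9), the DNA-binding activator of the clock, was higher in MD+CA, while the repressor genes Per3 and Ciart and the output factors Dbp and Tef were lower. E-boxes, D-boxes and ROR elements are sequences through which clock factors are known to act. The promoters of 4 of these genes, whose windows held a match to such letters, are shown. Those of Dbp and Usp2, which held none, are not. Each run is the 250 bases before the RefSeq start site in build GRCm38.p6, on the strand of the gene. Capitals mark matches to the E-box CACGTG, the D-box TTANGTAA or the ROR letters TNGGTCA, on either strand. The second of the ROR letters was left free, so a match need not be a working ROR element.
Bmal1 (listed as Arntl), chr7:113207215-113207464, plus strand: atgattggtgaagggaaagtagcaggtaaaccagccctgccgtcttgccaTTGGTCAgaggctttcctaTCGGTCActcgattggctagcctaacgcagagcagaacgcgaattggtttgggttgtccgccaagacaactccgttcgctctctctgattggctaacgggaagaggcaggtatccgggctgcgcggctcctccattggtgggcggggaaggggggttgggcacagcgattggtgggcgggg
Per3, chr4:151044666-151044915, minus strand: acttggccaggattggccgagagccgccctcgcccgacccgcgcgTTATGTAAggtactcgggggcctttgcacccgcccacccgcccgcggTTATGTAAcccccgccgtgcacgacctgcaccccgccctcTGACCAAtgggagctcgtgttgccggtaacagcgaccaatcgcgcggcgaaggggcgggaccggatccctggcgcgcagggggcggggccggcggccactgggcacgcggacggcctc
Ciart, chr3:95882229-95882478, minus strand: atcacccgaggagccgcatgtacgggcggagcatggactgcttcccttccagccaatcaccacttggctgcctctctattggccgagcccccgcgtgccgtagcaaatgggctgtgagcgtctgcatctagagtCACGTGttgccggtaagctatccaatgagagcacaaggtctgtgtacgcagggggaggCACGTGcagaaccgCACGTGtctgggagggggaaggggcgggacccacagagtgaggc
Tef, chr15:81802423-81802672, plus strand: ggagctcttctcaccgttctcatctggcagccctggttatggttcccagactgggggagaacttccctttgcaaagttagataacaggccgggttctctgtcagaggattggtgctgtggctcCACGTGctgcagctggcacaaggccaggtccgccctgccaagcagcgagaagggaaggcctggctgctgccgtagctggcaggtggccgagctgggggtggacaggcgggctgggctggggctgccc

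The Bmal1 promoter held 2 matches to the ROR letters, TTGGTCA and TCGGTCA. That of Per3 held 2 D-boxes and 1 match to the ROR letters, that of Ciart 3 E-boxes and that of Tef 1 E-box. Binding to any of these stretches was not tested. Among 32851 RefSeq windows from 250 bases before to 50 bases after a start, 7.15% held the E-box, 2.32% the D-box and 10.96% the ROR letters. Of the 31 clock genes listed, 26 had such a window. In at least 1 window, 6 of them held an E-box, 1 a D-box and 6 the ROR letters. These counts are by gene, and some genes had more than 1 window. The shares above are by window, so the counts and shares are not directly comparable. The windows of Dbp and Usp2 held none of these letters.

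Bmal1 stood at 2.70, 1.62, 2.41 and 0.765 CPM (reads scaled to a common library size, as counts per 1e6 reads with TMM factors) in CD replicates 1 to 4 and at 17.1, 8.76, 14.6 and 10.2 CPM in MD+CA replicates 1 to 4. Every MD+CA library was above every CD library. Its log2 fold change was 2.75 (adjusted p = 0.00783, SE 0.38). In MD the level was 1.28 ± 0.507 CPM (SD, n = 4), near that of CD.

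Usp2 was at 11.8, 11.9, 15.4 and 21.6 CPM in CD and at 2.30, 2.70, 0.886 and 2.25 CPM in MD+CA. No MD+CA library reached the CD range, and the log2 fold change was -2.86 (adjusted p = 0.00381, SE 0.33). MD lay on the other side of CD, at 38.5 ± 10.7 CPM, with a log2 difference of MD+CA from MD of -4.21 (adjusted p = 3.34e-05, SE 0.34).

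Per3, a period gene whose product is part of the repressor complex, was at 42.2, 47.3, 28.3 and 48.2 CPM in CD and at 3.86, 4.83, 1.52 and 11.8 CPM in MD+CA. The highest MD+CA library, replicate 4, was still below the lowest CD library. On the log2 scale the change was -2.89 (adjusted p = 0.00902, SE 0.42). Dbp, an activator that binds D-boxes, was at 215, 158, 126 and 266 CPM in CD and at 8.73, 13.7, 4.43 and 54.5 CPM in MD+CA. Here too MD+CA replicate 4 was the highest of its group and the groups did not overlap. On the log2 scale it changed by -3.23 (adjusted p = 0.0307, SE 0.59). Ciart, a repressor of CLOCK and BMAL1, fell from 6.79 ± 3.89 to 0.860 ± 0.676 CPM, a log2 fold change of -2.90 (adjusted p = 0.0314, SE 0.55). Tef, a factor of the same family as Dbp, had a log2 fold change of -1.67 (adjusted p = 0.0314, SE 0.31). In MD, Per3 had 66.0 ± 16.7 CPM, Dbp 251 ± 60.7, Ciart 18.6 ± 8.50 and Tef 234 ± 63.0.

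**Figure D2:**
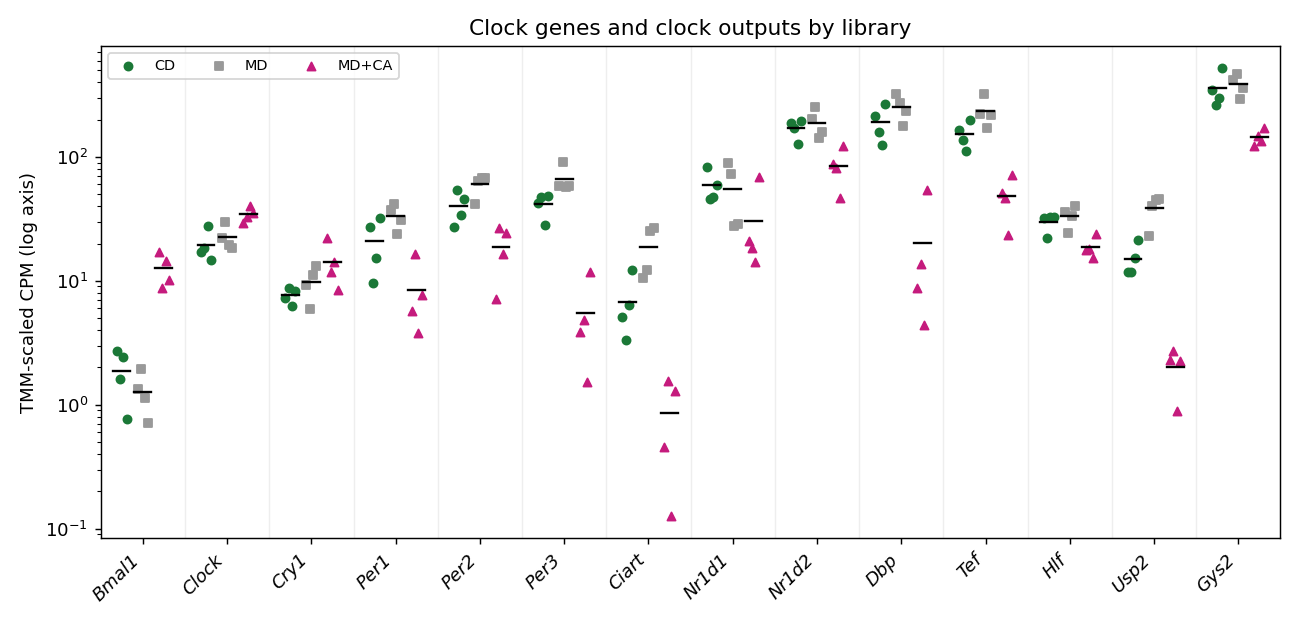
Level of clock genes in CPM (log axis) in each library of CD, MD and MD+CA; each point is 1 library and the bar is the group mean. All 4 MD+CA points of Bmal1 lie above CD, and those of Usp2, Per3, Dbp, Tef and Ciart lie below.

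Of 8 clock activators, RORs, Nfil3 and cryptochromes, 1 was called higher and 0 lower, with a median log2 fold change of 0.85. Npas2, the partner that can replace CLOCK, had 0.429 ± 0.344 CPM in CD and 4.22 ± 2.97 in MD+CA without overlap, a log2 fold change of 3.31 (adjusted p = 0.0696, SE 0.79), which did not pass. Of 8 PER, REV-ERB and DEC repressors, 2 were called lower, all 8 had negative values and the median was -1.06. Nr1d1, which encodes REV-ERB alpha, had a log2 fold change of -0.95 (adjusted p = 0.543, SE 0.48) and was at 45.9 to 82.5 CPM in CD. The groups overlapped only through MD+CA replicate 4, at 68.5 CPM against 14.3 to 20.9 in the other MD+CA libraries. Over the alternative fits its log2 fold change ranged from -1.72 to -0.73, with an adjusted p of 0.0611 at the lowest. Of 15 PAR bZIP factors and clock outputs, 4 were called lower (Dbp, Usp2, Tef and Gys2), with a median of -0.67. The medians of the same lists in MD over CD were 0.09, 0.56 and 0.21. With 1 library left out, calls among the repressors numbered 1 to 3 and among the outputs 1 to 7. The output count was 1 without CD replicate 1 or 4 or MD+CA replicate 1 or 2, and 7 without MD+CA replicate 4. The calls of Dbp, Tef, Ciart and Gys2 each held in 7 of the 12 such fits, with adjusted p up to 0.111 without CD replicate 4.

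Several genes of fat synthesis and sugar handling were lower in MD+CA than in CD. The called ones were Elovl6, which elongates palmitate, G6pdx, which supplies NADPH, the fructose transporter Slc2a5, the glycogen synthase Gys2 and Ppp1r3g, which directs a phosphatase to glycogen. Some of these had low values in MD too, which shares the diet.

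Elovl6 was at 240.1, 367, 112 and 390.1 CPM in CD and at 46.7, 50.6, 56.7 and 90.4 CPM in MD+CA. The groups did not overlap, although CD replicate 3 stood well below the other CD libraries. The log2 fold change was -2.18 (adjusted p = 0.0119, SE 0.34), and MD lay between at 122 ± 16.2 CPM. G6pdx was at 18.1, 18.5, 8.67 and 27.9 CPM in CD and at 4.50, 7.04, 5.06 and 6.48 CPM in MD+CA, a log2 fold change of -1.66 (adjusted p = 0.0314, SE 0.31). CD replicate 3 was again the lowest of its group, and the groups did not overlap. MD had 4.81 ± 1.497 CPM, and its difference from CD also passed, at -1.93 (adjusted p = 0.0392, SE 0.32). With 1 library left out, the call of G6pdx between MD+CA and CD held in 6 of 12 fits, with adjusted p up to 0.128 without CD replicate 4.

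Scd1, the desaturase that makes oleate and one of the most abundant liver transcripts, was at 10668, 14346, 5339 and 12166 CPM in CD, 1615, 2469, 1738 and 3114 in MD+CA and 964, 887, 3856 and 4432 in MD. All MD+CA libraries were below all CD libraries, yet the log2 fold change of -2.25 (adjusted p = 0.0567, SE 0.51) missed the threshold. Its 95% interval ran from -3.33 to -1.17. Of the 22 lipogenesis genes, 2 were called lower and 0 higher, all 22 had negative values, 13 had an unadjusted p under 0.05 and the median was -1.34. In MD over CD the median was -1.01 and 1 member was called, where 0.088% of all genes were called. Fasn, the fatty acid synthase, had 589 ± 284 CPM in CD, 210.2 ± 149.5 in MD+CA and 195 ± 37.5 in MD (log2 fold change -1.49, adjusted p = 0.178, SE 0.46). Pnpla3, a lipase tied to fatty liver in people, had 10.9 ± 9.61 CPM in CD, 1.21 ± 1.11 in MD+CA and 0.976 ± 0.333 in MD (log2 fold change -3.09, adjusted p = 0.0696, SE 0.74). Srebf1, the transcription factor of the pathway, had a log2 fold change of -0.14 (adjusted p = 0.943, SE 0.28), with a 95% interval of -0.75 to 0.46. The count of 2 called members was 1 without any of CD replicates 1, 2 and 4 and MD+CA replicates 1, 2 and 3, 10 without MD+CA replicate 4, and 11 with DESeq2.

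Slc2a5, which takes up fructose, was at 3.38, 3.55, 3.49 and 3.75 CPM in CD and at 0.184, 0.900, 0.253 and 1.21 CPM in MD+CA. Its reads in MD+CA replicates 1 to 4 were few, at 2, 11, 2 and 14. CD libraries were close to one another, and all MD+CA libraries were lower. Its log2 fold change was -2.41 (adjusted p = 0.0314, SE 0.45), with MD at 2.40 ± 0.649 CPM, and the call held in 5 of the 12 fits with 1 library left out. Gys2, which builds liver glycogen, was at 348, 264, 299.8 and 519 CPM in CD and at 123, 148, 134 and 171 CPM in MD+CA. Again no library overlapped, the log2 fold change was -1.31 (adjusted p = 0.0314, SE 0.25), and MD had 385 ± 75.9 CPM. Ppp1r3g was at 13.2, 3.85, 3.76 and 69.0 CPM in CD and at 0.459, 0.164, 0.127 and 0.519 CPM in MD+CA. These MD+CA values stood for only 5, 2, 1 and 6 reads. CD replicate 4 was far above the other CD libraries, and the log2 fold change of -6.07 (adjusted p = 0.0334, SE 1.17) has a wide 95% interval, -8.55 to -3.58. Without CD replicate 4 and in 5 of the other 11 such fits its call was lost, with adjusted p up to 0.104. Pdk1, a kinase that restrains pyruvate oxidation, was 142 ± 30.0 CPM in CD and 57.4 ± 18.6 in MD+CA (log2 fold change -1.31, adjusted p = 0.0314, SE 0.24), and its call held in 6 of those 12 fits. In MD, Ppp1r3g was at 23.2, 30.0, 4.28 and 3.82 CPM, and Pdk1 had 93.6 ± 13.2 CPM.

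Of 20 fructose and glucose genes, 3 were called lower (Ppp1r3g, Slc2a5 and Gys2), and the median was -0.30. Slc2a2, the main glucose transporter of hepatocytes, had no overlap but did not pass (log2 fold change -0.93, adjusted p = 0.152, SE 0.27). Ppp1r3c, another glycogen-targeting subunit, had 36.6 ± 8.90 CPM in CD and 73.9 ± 16.9 in MD+CA (log2 fold change 1.01, adjusted p = 0.0932, SE 0.26). The calls of this list numbered 0 without CD replicate 1 or 4 or MD+CA replicate 1, 2 or 3, and 3 without MD+CA replicate 4 or any MD library.

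Smad9 and Lepr had low values on the MASH diet with and without cinnabarinic acid. Smad9, a signal mediator of bone morphogenetic proteins, was at 19.7, 19.5, 11.4 and 15.02 CPM in CD, 1.29, 4.01, 2.78 and 4.58 in MD+CA and 2.87, 3.26, 2.10 and 2.07 in MD. No library on the MASH diet reached the lowest CD library. The log2 fold change of MD+CA over CD was -2.36 (adjusted p = 0.00783, SE 0.33), that of MD over CD was -2.67 (adjusted p = 0.0100, SE 0.33), and that of MD+CA over MD was 0.31 (adjusted p = 0.606, SE 0.34). These contrasts share libraries. Lepr, the leptin receptor, was at 38.0, 28.3, 57.0 and 80.4 CPM in CD and at 1.93, 1.15, 10.3 and 7.18 CPM in MD+CA, with MD at 9.86 ± 3.36 CPM. The groups did not overlap, and the log2 fold change was -3.34 (adjusted p = 0.0154, SE 0.55), while that of MD over CD, -2.37 (adjusted p = 0.0904, SE 0.52), did not pass. Without CD replicate 4 the adjusted p of Lepr for MD+CA over CD was 0.0627, and its call held in the other 11 such fits. Fabp5, a fatty acid carrier, was 727 ± 315 CPM in CD, 107.2 ± 131 in MD+CA and 75.5 ± 41.9 in MD, with MD+CA replicate 3 highest of its group, and did not pass (log2 fold change -2.76, adjusted p = 0.0843, SE 0.69). Without MD+CA replicate 3 the log2 fold change of Fabp5 was -4.11 (adjusted p = 0.0144), which did.

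**Figure D3:**
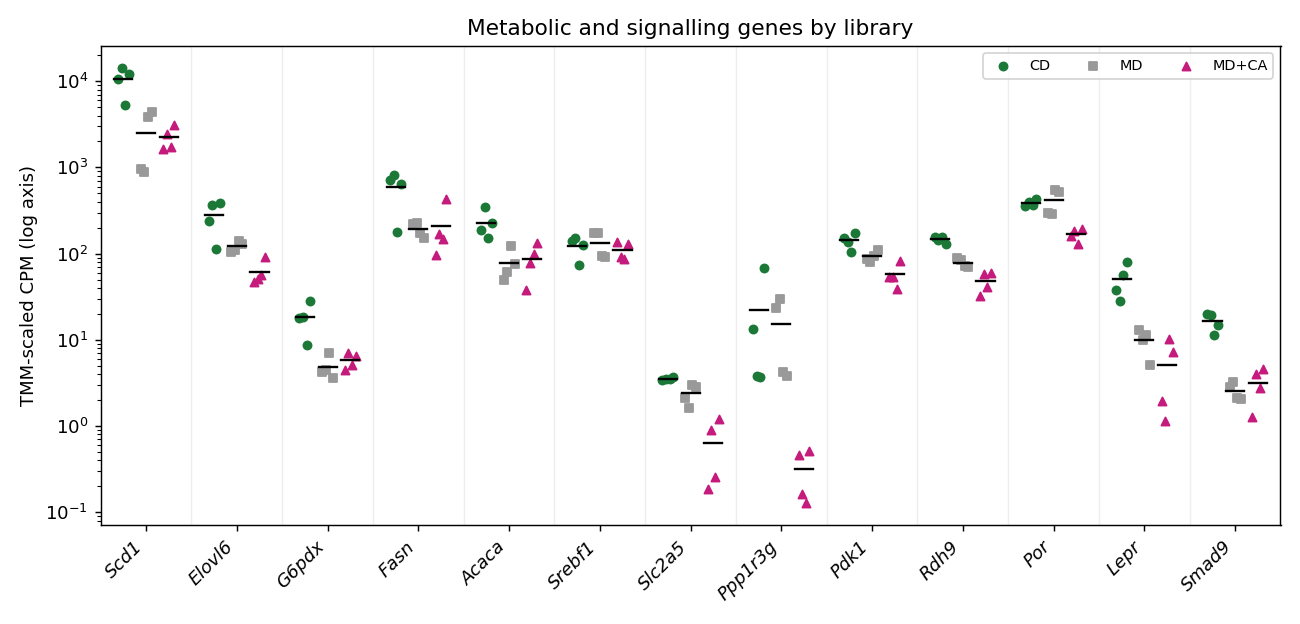
Level in CPM (log axis) of genes of fat synthesis, sugar handling and signalling in each library of CD, MD and MD+CA; each point is 1 library and the bar is the group mean. For Smad9 the MD and MD+CA means, 2.58 and 3.17 CPM, both lie below the CD mean of 16.4.

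Cholesterol genes gave no call. Of 26 genes of cholesterol synthesis and uptake, 0 were called by edgeR, 8 had an unadjusted p under 0.05, DESeq2 called 4, and the median was -0.30. Of 12 LXR targets, edgeR called 0 and DESeq2 2, 6 had an unadjusted p under 0.05 and the median was -0.34. Pltp, the phospholipid transfer protein, had no overlap, at 43.4 to 95.3 CPM in CD and 16.2 to 24.99 in MD+CA, and a log2 fold change of -1.89 (adjusted p = 0.0517, SE 0.41). Cyp7a1, the rate-limiting enzyme of bile acid synthesis, had 172 ± 59.4 CPM in CD and 164 ± 96.99 in MD+CA. Its log2 fold change was -0.06 (adjusted p = 0.991, SE 0.41), with a 95% interval of -0.94 to 0.81.

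Enzymes of drug and steroid metabolism were among the lower genes. Rdh9, a microsomal retinol and steroid dehydrogenase, was at 157, 144, 156 and 128 CPM in CD and at 32.6, 58.3, 41.4 and 60.4 CPM in MD+CA. All 4 MD+CA libraries were below CD, the log2 fold change was -1.60 (adjusted p = 0.00783, SE 0.22), and MD lay between at 78.9 ± 8.84 CPM. Por, which passes electrons to all microsomal P450 enzymes, was at 359, 392, 367 and 428 CPM in CD and at 161, 183, 129.9 and 194 CPM in MD+CA. Every MD+CA library was lower, the log2 fold change was -1.21 (adjusted p = 0.0445, SE 0.25), and MD had 415 ± 143 CPM.

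Fmo2, a flavin monooxygenase, was at 41.9 to 44.2 CPM in CD and 4.68 to 18.2 in MD+CA, where replicate 3 was far below the others (log2 fold change -1.59, adjusted p = 0.0473, SE 0.33). Without MD+CA replicate 3 the log2 fold change of Fmo2 was -1.33 (adjusted p = 0.0408). Gstt2, a glutathione transferase, had 115 ± 31.6 CPM in CD and 42.6 ± 19.9 in MD+CA (log2 fold change -1.43, adjusted p = 0.0490, SE 0.30). Ugt1a5, which shares exons with the other Ugt1a genes so that its reads can be split among them, had a log2 fold change of -1.66 (adjusted p = 0.0490, SE 0.35). The calls of Por, Fmo2, Gstt2 and Ugt1a5 held in only 2 or 3 of the 12 fits with 1 library left out, with adjusted p up to 0.164. Of 31 genes of P450 families 2 and 3 with their reductase and receptors, 1 was called lower, Por itself, and the median was -0.28.

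Several macrophage genes were higher in MD+CA than in CD. Mpeg1, a pore-forming protein of phagocytes, Cd68, a lysosomal protein of macrophages, Marco, a scavenger receptor, Axl, a receptor for dying cells, and the complement gene C1qb were all called. In bulk liver a change in the number of macrophages and a change in RNA per macrophage cannot be told apart.

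Mpeg1 was at 43.2, 58.2, 34.7 and 46.7 CPM in CD and at 91.5, 123, 122 and 116 CPM in MD+CA. The groups were well apart, and the log2 fold change was 1.31 (adjusted p = 0.00902, SE 0.19). MD had 43.1 ± 3.81 CPM, and the log2 difference of MD+CA from MD was 1.39 (adjusted p = 0.00350, SE 0.19). Axl was at 10.5, 7.90, 8.94 and 8.55 CPM in CD and at 22.1, 18.5, 20.0 and 22.999 CPM in MD+CA, a log2 fold change of 1.22 (adjusted p = 0.00902, SE 0.18). No MD+CA library overlapped CD, and MD had 9.91 ± 1.76 CPM.

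Marco varied widely, at 13.3, 18.0, 9.84 and 7.09 CPM in CD and 141, 281, 59.1 and 32.7 in MD+CA. MD+CA replicate 2 was highest and replicate 4 lowest, but still above every CD library. The log2 fold change was 3.42 (adjusted p = 0.0307, SE 0.62), and the call held in 6 of the 12 fits with 1 library left out, with adjusted p up to 0.112 without CD replicate 4. In MD, Marco was at 9.74, 9.77, 31.5 and 8.04 CPM, with MD replicate 3 close to MD+CA replicate 4. Cd68 was at 1.82 to 2.92 CPM in CD and 5.33 to 7.60 in MD+CA (log2 fold change 1.45, adjusted p = 0.0169, SE 0.24). Lpl, lipoprotein lipase, which macrophages of fatty tissue express, was at 23.4, 33.4, 33.4 and 21.9 CPM in CD and at 104.98, 137, 59.6 and 64.2 CPM in MD+CA. All MD+CA libraries were higher, and the log2 fold change was 1.71 (adjusted p = 0.0138, SE 0.28). C1qb was at 9.22 to 14.2 CPM in CD and 21.7 to 40.8 in MD+CA (log2 fold change 1.27, adjusted p = 0.0314, SE 0.24). Csf1r, the receptor that macrophages need to survive, had 12.3 ± 1.27 CPM in CD and 24.1 ± 2.06 in MD+CA (log2 fold change 0.97, adjusted p = 0.0334, SE 0.19). Cd5l, which Kupffer cells secrete, had 70.1 ± 14.5 and 168 ± 48.8 CPM (log2 fold change 1.26, adjusted p = 0.0440, SE 0.26). The calls of Lpl, Cd68, C1qb, Csf1r and Cd5l held in 10, 9, 5, 4 and 3 of the 12 fits with 1 library left out, with adjusted p up to 0.163 for Cd5l without CD replicate 4.

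Of 14 Kupffer cell genes, 4 were called higher (Marco, C1qb, Csf1r and Cd5l) and 0 lower, where 0.528% of all genes were called. In the list 13 had positive values and the median log2 fold change was 1.05. An unadjusted p under 0.05 was found for 12 of the 14, against 1436 of all 13631 genes. The summed level of the list was 359.7 to 422.3 CPM in CD, 258.3 to 459.9 in MD and 542.9 to 987.7 in MD+CA. The defining Kupffer genes Clec4f and Vsig4 did not pass, with 87.4 ± 13.3 and 165 ± 53.6 CPM for Clec4f (log2 fold change 0.91, adjusted p = 0.121, SE 0.25) and 16.6 ± 1.08 and 34.9 ± 8.59 CPM for Vsig4 (log2 fold change 1.08, adjusted p = 0.0714, SE 0.26). Slc40a1, the iron exporter, had a log2 fold change of -0.02 (adjusted p = 0.995, SE 0.28). The count of 4 was 0 without any single CD library or without MD+CA replicate 1 or 2, 8 without MD+CA replicate 4, and 10 with DESeq2. The median ranged from 0.99 to 1.11 over the fits with 1 library left out.

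Of 12 recruited and lipid-associated macrophage genes, 2 were called higher (Cd68 and Lpl) and 0 lower, 10 had positive values, 11 had an unadjusted p under 0.05 and the median was 1.22. The 2 members with negative values were Fabp5, given above, and Cd9, a membrane protein that many cell types express (log2 fold change -0.90, adjusted p = 0.184, SE 0.28). The summed level of the list was 620.4 to 1248 CPM in CD, 237.1 to 401.0 in MD and 305.5 to 628.9 in MD+CA, which overlapped CD only at the end of its range. Fabp5, the member with the highest CPM in CD, made up 727 ± 315 CPM of the sum in CD and 107.2 ± 131 in MD+CA. Trem2, Gpnmb, Mmp12 and Ly6c2 of this list were below the count filter, so those hallmark genes gave no value. Spp1, which such macrophages share with bile duct cells, had a log2 fold change of 0.01 (adjusted p = 0.999, SE 0.28). The list's calls numbered 0 without CD replicate 1, 4 without MD replicate 2 and 8 with DESeq2. Of 8 tested T, NK and B cell genes edgeR and DESeq2 both called 0, and Cd3e had 0 to 15 reads in the 8 libraries. An unadjusted p under 0.05 was found for 1 of them, near the share over all genes. Of 8 neutrophil genes 2 were tested and 0 called by edgeR or DESeq2, both with positive values and an unadjusted p under 0.05. S100a9, a neutrophil protein that also rises in other cells during inflammation, was at 0.203, 0.405, 1.97 and 0.417 CPM in CD and 2.30, 3.60, 12.4 and 0.605 in MD+CA, with replicate 3 highest and overlapping groups (log2 fold change 2.65, adjusted p = 0.251, SE 0.92), and without that replicate its log2 fold change was 1.54 (adjusted p = 0.704). Csf3r, the receptor of granulocyte colony-stimulating factor, also overlapped (log2 fold change 1.13, adjusted p = 0.393, SE 0.48). S100a8, the partner of S100a9, had 0 to 5 reads.

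Some other called genes with higher values are known from myeloid cells. They were Sirpa, Pilra, Aif1, Laptm5, Tyrobp and Cyth4, with log2 fold changes from 0.98 for Cyth4 to 1.50 for Pilra. Like Mpeg1, Axl and Ifi30, all of them but Pilra were named after their values were seen. Aif1, which encodes the macrophage protein IBA1, had 7.72 ± 0.863 CPM in CD and 18.5 ± 6.93 in MD+CA. Tyrobp, an adaptor of activating receptors, had 1.88 ± 0.466 and 5.03 ± 0.959 CPM. None of these 6 kept its call in more than 5 of the 12 fits with 1 library left out. Their log2 differences of MD+CA from MD ran from 0.40 for Sirpa (edgeR adjusted p = 0.229) to 1.38 for Aif1 (adjusted p = 0.0171). Of the 6, only Aif1 and Pilra (adjusted p = 0.0492) passed against MD. Ifi30, a lysosomal reductase that unfolds antigens, kept its call in all 12, at 9.25, 8.91, 8.58 and 8.90 CPM in CD and 27.6, 24.1, 22.4 and 16.3 in MD+CA. The groups did not overlap, and the log2 fold change was 1.34 (adjusted p = 0.00902, SE 0.20).

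**Figure D4:**
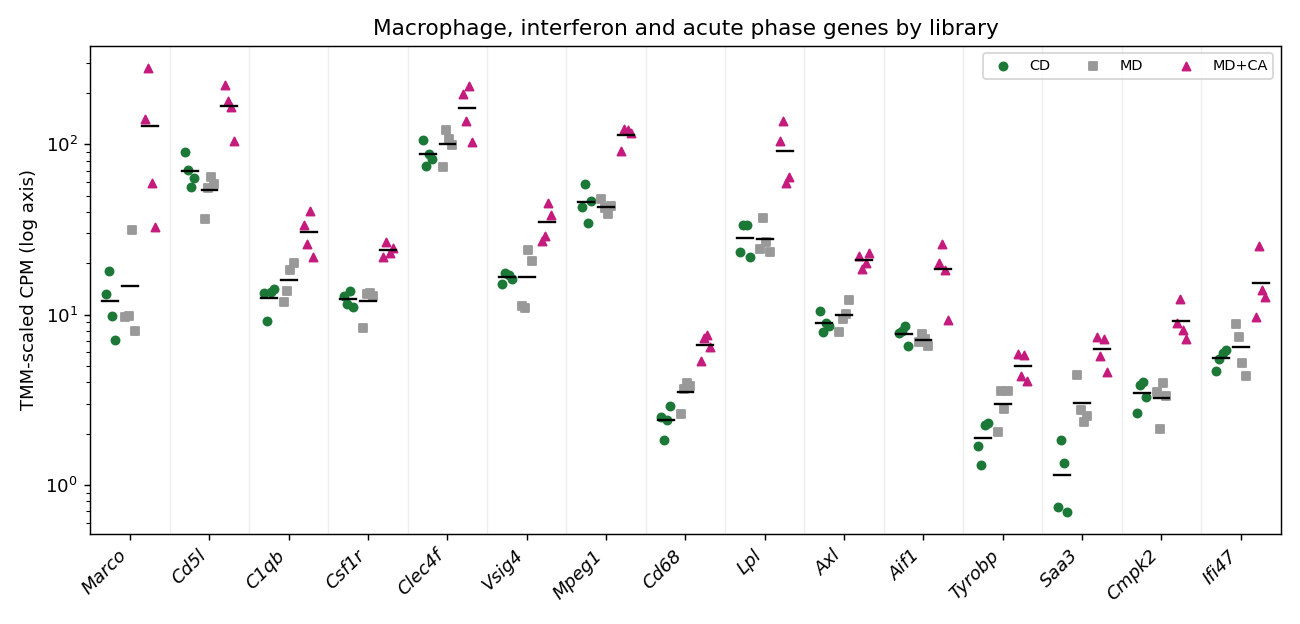
Level in CPM (log axis) of macrophage and interferon genes in each library of CD, MD and MD+CA; each point is 1 library and the bar is the group mean. MD+CA libraries of Mpeg1 lie at 91.5 to 123 CPM, above CD at 34.7 to 58.2.

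Interferon genes had mostly positive values in MD+CA over CD, but few passed. Of 29 type I interferon-stimulated genes, 1 was called, Cmpk2, a mitochondrial nucleotide kinase, 28 had positive values and the median was 0.73. Cmpk2 was at 2.63, 3.85, 4.02 and 3.27 CPM in CD and at 8.91, 12.3, 8.10 and 7.18 CPM in MD+CA. All 4 MD+CA libraries were above CD, with a log2 fold change of 1.41 (adjusted p = 0.0307, SE 0.26). Of 16 interferon-induced GTPases, 1 was called, Ifi47, and all 16 had positive values and an unadjusted p under 0.05, with a median of 1.36. Ifi47 was at 4.66, 5.47, 5.99 and 6.19 CPM in CD and at 9.64, 25.4, 13.9 and 12.7 CPM in MD+CA, with replicate 2 highest (log2 fold change 1.47, adjusted p = 0.0435, SE 0.30). The calls of Cmpk2 and Ifi47 held in 7 and 4 of the 12 fits with 1 library left out, with adjusted p up to 0.146 for Ifi47 without CD replicate 1. In MD, Cmpk2 had 3.24 ± 0.784 CPM and Ifi47 6.46 ± 2.04.

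MD+CA replicate 2 stood apart for these GTPases. Tgtp1, a GTPase that attacks the vacuoles of intracellular pathogens, was at 14.8, 331, 26.6 and 22.4 CPM in MD+CA and 2.43, 11.2, 6.17 and 3.55 in CD, and its log2 fold change of 4.10 (adjusted p = 0.0528, SE 0.89) did not pass. Without MD+CA replicate 2 the log2 fold change of Tgtp1 was 1.88 (adjusted p = 0.0885), while without MD+CA replicate 1 or 4 it was 4.46 (adjusted p = 0.0394) or 4.43 (adjusted p = 0.0317). The summed level of the list was 651.9 to 915.4 CPM in CD and 1040.0 to 4644.0 in MD+CA. Without MD+CA replicate 2 the median fell to 0.56 and 0 members were called. Calls numbered 4 without MD+CA replicate 4, 0 also without any CD library or without MD replicate 1 or 3, and 7 with DESeq2. Among the type I genes they numbered 0 without CD replicate 1, 2 or 4 or MD+CA replicate 1 or 2, 4 without MD+CA replicate 4, and 6 with DESeq2.

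The values of acute phase genes, which hepatocytes switch on during inflammation, rested mostly on MD+CA replicate 3. Saa2, a serum amyloid gene so close to Saa1 that reads can be split between them, was at 13.0, 17.1, 24.2 and 7.16 CPM in CD and at 56.0, 34.4, 14024 and 112 CPM in MD+CA. The groups did not overlap, but replicate 3 was far above the other MD+CA libraries. The log2 fold change of 7.86 (adjusted p = 0.0539, SE 1.74) did not pass. Without MD+CA replicate 3 that of Saa2 was 2.12 (adjusted p = 0.105), and without MD+CA replicate 2 or 4 it was 8.27 (adjusted p = 0.0492 and 0.0349). Lcn2, an iron-binding protein of innate defence, was at 8.27, 7.12, 562 and 19.8 CPM in MD+CA against 1.39 to 6.53 in CD (log2 fold change 5.46, adjusted p = 0.0596, SE 1.24). For Lcn2 the log2 fold change was 1.77 (adjusted p = 0.129) without MD+CA replicate 3 and 5.83 (adjusted p = 0.0414) without MD+CA replicate 4. The neutrophil gene S100a9 was also highest in MD+CA replicate 3, and its part in these values was not tested.

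Saa3, the serum amyloid gene that macrophages also express, was called, and replicate 3 did not stand apart for it. It was at 0.743, 1.82, 1.34 and 0.695 CPM in CD, 7.44, 5.73, 7.22 and 4.58 in MD+CA and 4.41, 2.75, 2.33 and 2.55 in MD. The lowest MD+CA library was above every CD library. It rose with a log2 fold change of 2.46 (adjusted p = 0.00902, SE 0.35). Of 23 acute phase genes, 1 was called and 22 had positive values, with a median of 1.14. Without MD+CA replicate 3 the median was 0.19, while without MD+CA replicate 4 there were 7 calls. Of 15 inflammatory cytokine, chemokine and adhesion genes, edgeR called 0, 7 had an unadjusted p under 0.05, DESeq2 called 4, and the median was 0.84.

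**Figure D5:**
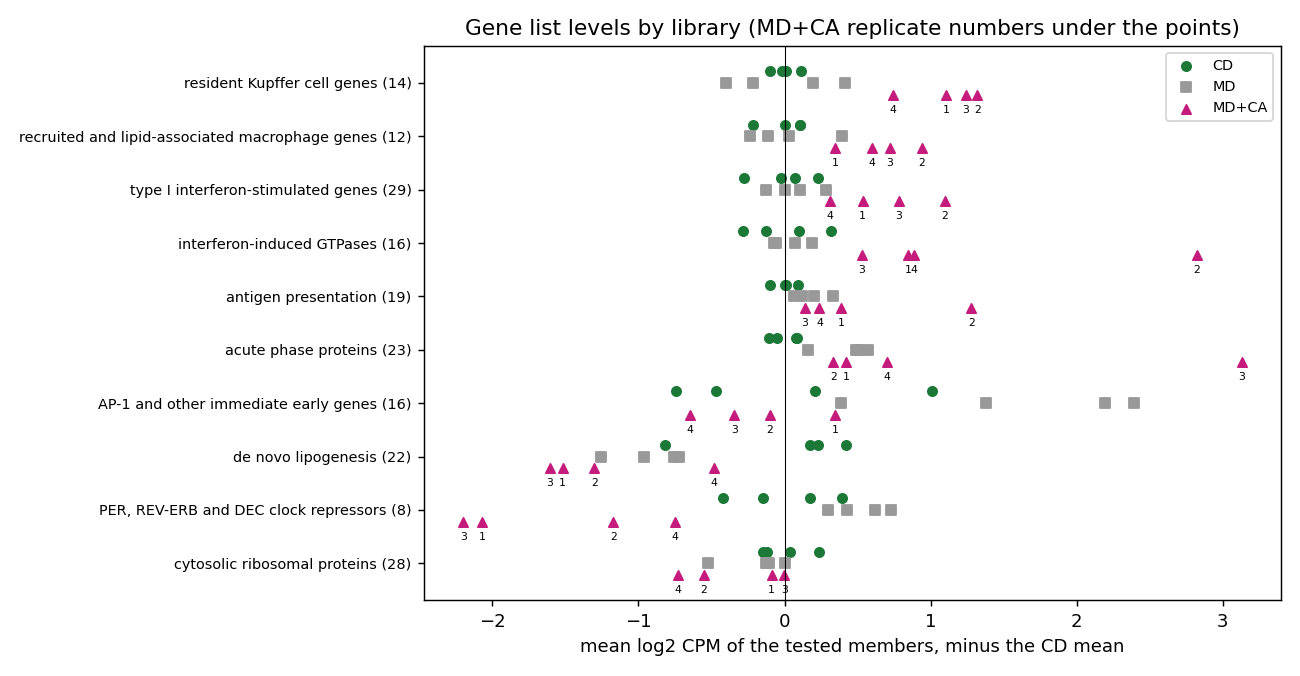
Mean log2 CPM of the members of each gene list in each library, minus the CD mean (horizontal axis), for CD, MD and MD+CA; each point is 1 library and the digits under the MD+CA points are replicate numbers. MD+CA replicate 3 stands apart for acute phase proteins and replicate 2 for interferon-induced GTPases, while the Kupffer cell list is above CD in all 4.

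Several gene lists held no call between MD+CA and CD, among them fatty acid oxidation, extracellular matrix, the aryl hydrocarbon receptor and ribosomal proteins. Of 24 genes of fatty acid oxidation, ketogenesis and PPARalpha, edgeR called 0 and DESeq2 1, 1 had an unadjusted p under 0.05 and the median was -0.13. Of 26 extracellular matrix and stellate cell genes, edgeR and DESeq2 called 0 and the median was 0.24. In this list 3 had an unadjusted p under 0.05, near the share over all genes, 1436 of 13631. Col1a1, the main fibrillar collagen of scars, had 3.55 ± 0.748 CPM in CD, 5.35 ± 3.29 in MD+CA and 8.21 ± 3.39 in MD. Its log2 fold change of 0.60 (adjusted p = 0.733, SE 0.42) had a 95% interval of -0.30 to 1.49. Of 7 tested genes of the aryl hydrocarbon receptor and its targets, both tools called 0 and 0 had an unadjusted p under 0.05, with a median of -0.10. Ahr itself had 22.8 ± 4.12 CPM in CD and 23.2 ± 7.93 in MD+CA (log2 fold change 0.03, adjusted p = 0.992, SE 0.25, 95% interval -0.49 to 0.55). Cyp1a2, a classical target, had 284 ± 49.6 and 188 ± 68.3 CPM (log2 fold change -0.59, adjusted p = 0.561, SE 0.31). Cyp1a1, Ahrr, Aldh3a1 and Stc2 were below the count filter. All 28 cytosolic ribosomal protein genes had negative values with a median of -0.31, 0 had an unadjusted p under 0.05, and edgeR and DESeq2 called 0.

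For some genes the mean level in MD was above those of both CD and MD+CA. Gdf15, a stress-induced hormone, was at 4.59, 1.72, 3.93 and 5.35 CPM in CD, 4.23, 2.54, 5.44 and 4.76 in MD+CA and 27.0, 34.4, 17.5 and 10.3 in MD. The MD+CA and CD libraries overlapped, and every MD library was above both. The log2 fold change of MD+CA over CD was 0.09 (adjusted p = 0.981, SE 0.39), with a 95% interval of -0.74 to 0.92, and that of MD over CD was 2.49 (adjusted p = 0.0392, SE 0.38). Fitm1, which helps form lipid droplets, had 0.591 ± 0.481 CPM in CD, 1.38 ± 0.995 in MD+CA and 7.60 ± 4.34 in MD. Its difference of MD+CA from CD, 1.19 (adjusted p = 0.599, SE 0.65), had a 95% interval of -0.20 to 2.58. The AP-1 gene Jun had 26.1 ± 12.4, 192 ± 106.1 and 31.3 ± 11.9 CPM in CD, MD and MD+CA, and Fos had 1.78 ± 2.15, 54.4 ± 49.7 and 1.26 ± 0.743. Of 16 tested immediate early genes, edgeR and DESeq2 called 0 between MD+CA and CD, 1 had an unadjusted p under 0.05, and the median was -0.40, against 1.55 in MD over CD. Without CD replicate 4 the median of these genes in MD+CA over CD was 0.16.

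Among the remaining called genes were some for mitochondrial proteins, which moved in both directions. Clpx, the unfoldase of the mitochondrial ClpXP protease, was at 88.1, 76.7, 86.9 and 53.3 CPM in CD and at 196, 179.7, 182 and 183 CPM in MD+CA. The MD+CA libraries were close to one another and above all CD libraries, and the log2 fold change was 1.28 (adjusted p = 0.0128, SE 0.20). MD had 59.8 ± 9.95 CPM. Without CD replicate 4 its adjusted p was 0.0506, and its call held in the other 11 such fits. Grpel2, a cofactor of mitochondrial protein import, had 84.0 ± 6.59 CPM in CD and 45.2 ± 3.79 in MD+CA (log2 fold change -0.89, adjusted p = 0.0314, SE 0.17). Dmac2, which helps assemble mitochondrial membrane complexes, had 55.5 ± 4.58 and 30.1 ± 3.49 CPM (log2 fold change -0.88, adjusted p = 0.0334, SE 0.17). Coq10b, a carrier of coenzyme Q, had 26.4 ± 12.2 and 9.69 ± 2.73 CPM (log2 fold change -1.44, adjusted p = 0.0435, SE 0.29). The calls of Grpel2, Dmac2 and Coq10b held in 5, 3 and 3 of the 12 fits with 1 library left out, with adjusted p up to 0.141 for Coq10b without CD replicate 4.

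Pdzk1ip1, a small membrane protein of epithelia, was at 6.82, 8.51, 4.02 and 9.46 CPM in CD and at 1.29, 0.818, 1.52 and 1.04 CPM in MD+CA, without overlap (log2 fold change -2.64, adjusted p = 0.00455, SE 0.32). Cnmd, which encodes chondromodulin, was at 6.53 to 13.7 CPM in CD and 0.367 to 2.25 in MD+CA (log2 fold change -2.66, adjusted p = 0.00902, SE 0.40). Nat8f7, an acetyltransferase gene with near-identical neighbours among which reads can be split, had 9 to 16 reads in each CD library and 0 in all 4 MD+CA libraries. Against a floor of 3 counts over the group, it was at least 13.9-fold lower, and MD had 0.786 ± 0.120 CPM. Loxl4, which cross-links collagen, had 0.268 to 0.878 CPM in CD and 1.56 to 9.64 in MD+CA (log2 fold change 3.53, adjusted p = 0.0135, SE 0.57). Lrp4, a receptor of the lipoprotein receptor family, had 28.4 ± 3.04 and 13.0 ± 2.29 CPM (log2 fold change -1.12, adjusted p = 0.0128, SE 0.18). Map2k6, a kinase that activates p38, and Maff, a small MAF factor, were lower, at -1.36 (adjusted p = 0.0495, SE 0.29) and -1.97 (adjusted p = 0.0230, SE 0.34) on the log2 scale. With 1 library left out, the calls of Loxl4, Lrp4, Maff and Map2k6 held in 10, 11, 8 and 2 of 12 fits, with adjusted p up to 0.143 for Map2k6 without CD replicate 4.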

How the data were processed

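The series deposited, for each of 12 mouse liver libraries, a transcript table. Per the file headers it holds expected counts (estimated reads per transcript), TPM and transcript and effective lengths. Per the submitters' processing notes, fastp, Salmon 1.10.3, DESeq2 and build GRCm39 were used. No annotation release or strandedness is given in the sources used here. The deposited expected counts were summed by gene and rounded. The deposited TPM values were used only for the transcript length offset, with the deposited effective lengths.

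Genes passing edgeR 4.0.16 filterByExpr (minimum count 10) were scaled by TMM and fitted with all 12 libraries, without covariates, by the quasi-likelihood test, with Benjamini-Hochberg adjustment over all 13631 genes tested and a threshold of 0.05. CPM values use TMM library sizes, and errors are SD over 4 libraries. Library measures were compared by exact permutation. DESeq2 1.42.0 and limma voom 3.58.1 were alternatives. The script was tested on simulated data with known changes in MD+CA over CD, 50 genes at each size. It recovered 16% of the 2-fold changes, 88% of the 4-fold, 88% of the 8-fold and 94% of the 16-fold ones. Of its calls 7.14% were false. A list without a call can therefore still hold changes of about 2-fold. No library was left out.

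The members and the 48 gene lists were chosen with earlier results of these data known. Named genes were the 12 largest called changes each way among protein-coding genes without overlap and with an average log2 CPM of at least 1, up to 5 called members of each list (or its 3 smallest p), the 6 called genes with the smallest p, all clock and sex chromosome genes, and Ahr, Cyp1a1, Stc2, Cyp7a1, Col1a1, Trem2, Smad9, Gdf15 and Scd1. Other genes named were chosen after their values were seen. Among them were Mpeg1, Axl, Ifi30, Fasn, Pnpla3, Srebf1, Fabp5, Cd9, Vsig4, Clec4f, Slc40a1, Spp1, Jun and Fos. Promoters came from RefSeq tables of GRCm38.p6, another build than that of the counts.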

Additional observations from a re-analysis of the deposited data

Results flagged for a closer look

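In groups of 4 libraries, a library was singled out when its gap to the nearest other library as a share of the group's range exceeded Dixon's 95% critical value, which chance passes in about 1 of 20 groups. Of 250 groups tested (library measures, gene lists and named genes in CD and in MD+CA), 17 passed.

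MD+CA replicate 3 was singled out most often. It had the fewest genes with a read, 17422 against 18802 to 18913 in the other MD+CA libraries. Its acute phase list averaged 9.38 on the log2 CPM scale against 6.59 to 6.95, with Saa2 at 14024 CPM against 34.4 to 111.5 and Lcn2 at 562 CPM against 7.12 to 19.8. Fabp5 was high there, at 301 CPM against 19.8 to 66.8, and Fmo2 low, at 4.68 CPM against 16.2 to 18.2. The cell cycle list averaged 1.96 there against 2.36 to 2.44.

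MD+CA replicate 2 was highest for the interferon-induced GTPases, with a list average of 6.82 against 4.53 to 4.89, and for Tgtp1, at 331 CPM against 14.8 to 26.6. MD+CA replicate 1 was lowest for the heat shock chaperone list, 6.29 against 7.05 to 7.20, and had the smallest gap between transcript length and effective length, 227 bases against 270.0 to 276. MD+CA replicate 4 was highest for Nr1d1, at 68.5 CPM against 14.3 to 20.9.

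In CD, replicate 4 was highest for Ppp1r3g, at 69.0 CPM against 3.76 to 13.2, and for the clock output list, 6.33 against 5.87 to 5.95. CD replicate 2 was lowest for C1qb, at 9.22 CPM against 13.4 to 14.2, and CD replicate 1 highest for Loxl4, at 0.878 CPM against 0.268 to 0.348. CD replicate 3 was highest for S100a9, at 1.97 CPM against 0.203 to 0.417.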

How the results depend on the processing

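The 72 calls (30 higher, 42 lower) became 334 with DESeq2 (182, 152), 191 with limma voom and sample weights (109, 82), 390 with no low-count filter (240, 150) and 121 with protein-coding genes only (59, 62). They fell to 34 with an average transcript length offset (11, 23) and 46 in a fit of only the compared groups (18, 28); the cause was not tested. All 72 were among the calls of DESeq2, RLE scaling (75) and no filter, 66 among those of upper-quartile scaling (67), 65 among those of voom, 32 among those with the length offset and 38 among those of the compared groups. With the replicate block there were 154 calls (73, 81), 66 of them shared. Same-numbered MD+CA and CD libraries had deviations correlated at 0.350, 0.311, 0.264 and 0.030 for replicates 1 to 4. Differently numbered libraries had correlations from -0.304 to 0.308. Replicate 4 did not correlate best with its own number, while each of the other replicates did. The main fit did not take the numbers as pairs, and whether same-numbered libraries shared a pairing or batch was not tested. With 1 library left out, calls ranged from 17 to 169, higher ones from 6 to 89 and lower ones from 11 to 80.

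In 996 of 1007 fits a list median moved by less than the SD of single libraries around their group means. These fits share most or all libraries with the main fit, so small moves were likely beforehand and the count does not measure stability. The cell cycle median, 0.47, was 0.24 with voom and 0.29 with the replicate block. With 1 library left out, medians ranged from 0.64 to 1.11 (inflammatory genes), -0.11 to 0.40 (glucocorticoid targets), 0.996 to 1.33 (lipid-associated macrophage genes), 0.063 to 0.58 (T, NK and B cell genes), 0.56 to 1.52 (interferon-induced GTPases), 0.19 to 1.36 (acute phase), -0.093 to 0.34 (coagulation) and 0.087 to 0.25 (apoptosis). Medians of 12 of the 48 lists changed sign in at least 1 fit, 11 of them with 1 library left out, and each of these 12 had a median of 0.40 or less in size. The immediate early genes went from -0.40 to 0.16 without CD replicate 4. No named gene was called in the opposite direction in any of these fits. Among 4397 fits of named genes, 501 lost and 192 gained a call. Depth limits genes near 1 CPM, where 3 reads are 0.215 to 0.330 CPM in these libraries.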

Other observations

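The gene lists below held no call by edgeR between MD+CA and CD. Over all genes, 1436 of 13631 had an unadjusted p under 0.05. Of 20 endoplasmic reticulum chaperones, 15 had positive values and 4 an unadjusted p under 0.05, DESeq2 called 2, and the list had a median log2 fold change of 0.31, while the median of MD over CD was -0.54. Of 17 cell cycle genes, 13 were positive, 5 had an unadjusted p under 0.05 and DESeq2 called 1. Of 11 genes that female mouse liver is known to express more strongly, 8 were negative, 4 had an unadjusted p under 0.05 and DESeq2 called 1, with a median of -0.58. Of 15 NRF2 antioxidant targets, 11 were positive, 6 had an unadjusted p under 0.05, DESeq2 called 1 and the median was 0.24. The 13 mitochondrially encoded respiratory chain genes, of which DESeq2 also called 0, had a median of 0.04, against 0.92 in MD over CD.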
